A study of Homo sapiens with 6 samples.

Results

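RAB7A (RefSeq gene ID 7879) was examined as 1 gene in 6 iCLIP libraries. All were made from BEAS2B, an immortalised cell line of the human bronchial epithelium. Its members are all plus-strand crosslink positions in chr3:128444965-128533639 on hg19, an interval of 88675 nt. They number 2769 positions with an event in at least 1 library. QKI-5 replicates 1, 2 and 3 had 1854, 589 and 756 of them, out of 5239862, 1243745 and 1651104 positions in the whole libraries. Controls 1, 2 and 3 had 42, 8 and 7, out of 105833, 25736 and 18372. The gene was picked for a strong crosslink cluster in the QKI-5 libraries, so the height of that cluster is given as a description with no test.

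The 3 QKI-5 libraries were made with a self-made antibody against QKI-5, and the 3 controls with no CLIP antibody. Per the labels' protocol, which is the same text for all 6 libraries, cells received a UV dose of 150 mJ/cm2, and RNase A was used at a high or a low dilution. The labels name no other treatment and no genotype, and do not say which dilution a library had. Nothing in the labels says that replicates were separate cultures, so errors and p-values describe how far these libraries scatter, and that scatter may be technical. BEAS2B markers were not checked, since no gene coordinates of hg19 other than this interval were used.

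RAB7A is a small GTPase of late endosomes and lysosomes. In its GTP-bound form it recruits effectors that move these organelles along microtubules and bring about their fusion, and it is expressed in most cell types. QKI-5 is the nuclear isoform of Quaking, a STAR family protein that binds RNA at the Quaking response element and is known for its control of splicing, often from introns. In iCLIP, UV light joins protein and RNA where they touch, reverse transcription stops at the joined nucleotide, and the position of that stop is counted as 1 crosslink event.

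QKI-5 libraries held 7283982, 2143279 and 2889146 events in replicates 1, 2 and 3, and controls held 137926, 41475 and 29810. Levels are given in EPM, events per 1000000 events of the library. One event was worth 0.137, 0.467 and 0.346 EPM in the QKI-5 libraries but 7.25, 24.1 and 33.5 EPM in controls 1, 2 and 3, so control levels moved in coarse steps. Binomial and count intervals below are at 95% and cover counting error only, since it is not known whether PCR copies were merged.

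The RAB7A interval carried 4304 events in QKI-5 replicate 1, 1218 in replicate 2 and 1677 in replicate 3. Controls 1, 2 and 3 carried 43, 10 and 13. On the EPM scale the QKI-5 libraries were close together at 591, 568 and 580 EPM, with a mean of 580 ± 11.3 EPM (SD, n = 3). Control levels were lower and more scattered at 312, 241 and 436 EPM, with a mean of 330 ± 98.7 EPM (SD, n = 3). Every QKI-5 library lay above every control, an order shared by 19.6% of the 13166 windows of this length that were tested.

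The signal was strand-specific and began with the interval. No event lay on the minus strand of the interval in any library, which allows at most 0.0697, 0.246 and 0.179% as many minus-strand as plus-strand events in QKI-5 replicates 1, 2 and 3. The 10 kb before the interval also held no plus-strand event in any library. The first 1 kb inside it held 12, 6 and 11 QKI-5 events and no control event. The last 1 kb inside held 71, 12 and 27 QKI-5 events and 1 control event. Thus the start of the interval was also the start of the signal, on this strand and in these libraries.

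At the other end events went on past the interval, in QKI-5 libraries and in controls. The first 1 kb beyond it held 22, 13 and 9 events in QKI-5 replicates 1, 2 and 3, and 2 events in control replicate 2. The mean level was 4.07 EPM with the antibody and 16.1 EPM in controls. The third 1 kb beyond it held 154, 30 and 51 events, a level of 17.6 ± 3.57 EPM (SD, n = 3), against 8.23 ± 2.29 EPM in the last 1 kb inside. Control replicate 3 had 2 events there and the other controls had none. From 4 to 20 kb beyond the interval the level was 0.595 ± 0.310 EPM per kb (SD, n = 3) in the QKI-5 libraries. Controls had 1.55 ± 2.30 EPM per kb there, from 3 events. In these stretches the QKI-5 mean was thus not above the control mean, which rests on few events. Events downstream of the interval were not counted as RAB7A.

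**Figure D1:**
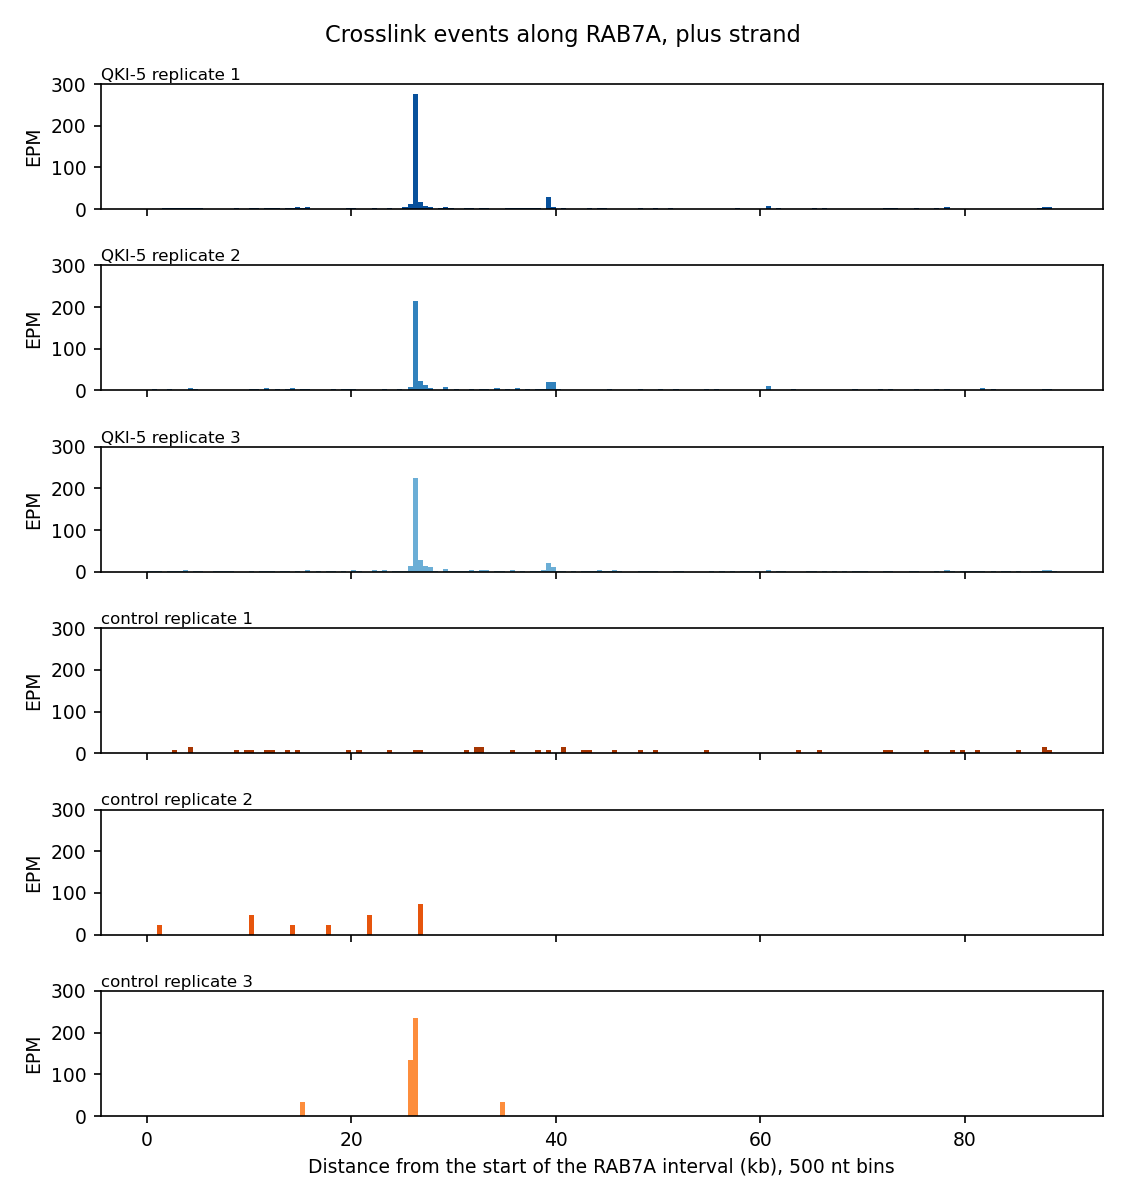
Crosslink events in EPM (vertical axis) per 500 nt bin along RAB7A, by distance in kb from the start of the interval (horizontal axis), with 1 panel per library. In the QKI-5 libraries 1 bin at 26 kb stands above the rest, and control replicate 3 has 7 events in the same bin.

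RAB7A events in the QKI-5 libraries were concentrated in 1 short stretch. A cluster was defined as a run of positions with at least 5 events each over the 3 QKI-5 libraries, joined where they lay at most 15 nt apart. The strongest cluster was chr3:128470965-128471143, 179 nt wide, which is 0.202% of the interval. It began 26 kb after the start of the interval and ended 62.5 kb before its end. The cluster therefore lay far from both ends, but exons, introns and UTRs of hg19 were not used here, so whether it is intronic was not assigned. Its sequence is not printed, because no hg19 genome was used.

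This cluster held 1949 events in QKI-5 replicate 1, 443 in replicate 2 and 569 in replicate 3, or 268, 207 and 197 EPM. The mean was 224 ± 38.3 EPM (SD, n = 3). Control replicate 1 had 1 event in it, control replicate 2 had none and control replicate 3 had 7, which makes 7.25, 0 and 235 EPM. The groups overlapped, because control replicate 3 lay between QKI-5 replicates 1 and 2. The control mean was 80.7 ± 134 EPM (SD, n = 3). Over pooled libraries the cluster was 6.29-fold higher with the antibody, a description that rests on 8 control events. No interval is given, because the gene was chosen for this cluster. Most of the pooled control depth came from control replicate 1, while most control events in the cluster came from control replicate 3.

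As a share of RAB7A events, the cluster took 45.3% (exact binomial interval 43.8 to 46.8) in QKI-5 replicate 1, 36.4% (33.7 to 39.1) in replicate 2 and 33.9% (31.7 to 36.3) in replicate 3. Among controls it was 2.33% (0.0589 to 12.3) in replicate 1, while replicate 3 reached 53.8% (25.1 to 80.8). Control replicate 2 had 0 of 10 events there, for which the exact interval reaches 30.8%. Replicate 1 had a larger share than the other QKI-5 libraries, beyond their counting intervals. Controls 1 and 3 also differed beyond their counting intervals. Among controls the spread covered the whole QKI-5 range, so a difference in share between the groups was not detectable in these libraries.

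**Figure D2:**
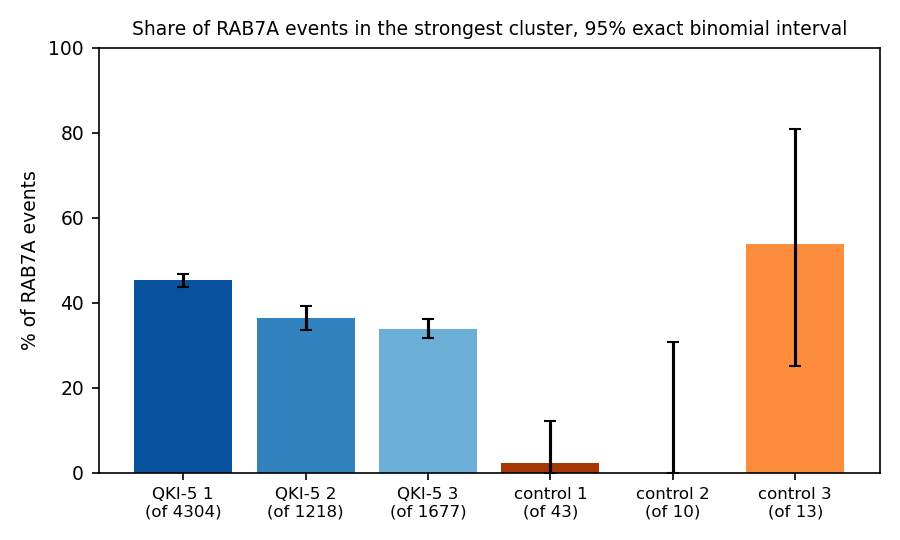
Share of RAB7A events in the strongest cluster, in percent, for each library, with the number of RAB7A events in the library under each bar and the 95% exact binomial interval as the error bar. QKI-5 shares lie between 33.9 and 45.3%, while the 3 controls run from 0 to 53.8% with wide intervals.

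The control events in the cluster were too few to show a profile. The 7 events of control replicate 3 lay at 4 positions, 128471063, 128471074, 128471092 and 128471122, with 3, 2, 1 and 1 events. Another 4 events of that library lay at a single position just before the cluster, 128470947, where the QKI-5 libraries had 3, 0 and 1 events. Of the 13 RAB7A events in control replicate 3, 11 thus came from these 5 positions. The single event of control replicate 1 lay at 128470985.

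Within the cluster the events were spread over many nucleotides. QKI-5 replicate 1 had an event at 156 of the 179 positions (87.2%), replicate 2 at 99 (55.3%) and replicate 3 at 111 (62.0%). A hit position held 12.5, 4.47 and 5.13 events on average, against 1.39, 1.58 and 1.72 at RAB7A positions outside the cluster. The 10 richest positions of each library held 29.3, 35.7 and 33.4% of its cluster events. No single nucleotide therefore carried most of the cluster in any QKI-5 library.

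The richest position was 128471082, nucleotide 118 of the cluster, with 95, 29 and 22 events, or 4.87, 6.55 and 3.87% of the cluster in replicates 1, 2 and 3. It was followed by 128471039 (nucleotide 75) with 93, 13 and 18 events and 128471122 (nucleotide 158) with 52, 11 and 21. Of these, 128471122 also had a control event. In all 3 QKI-5 libraries the median event of the cluster lay between nucleotides 94 and 104, and 90% of its events had been reached by nucleotides 146 to 149.

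In bins of 10 nt the cluster had 2 main crests and a smaller shoulder. Nucleotides 71 to 80 held 15.7, 11.7 and 11.4% of cluster events in QKI-5 replicates 1, 2 and 3. Nucleotides 111 to 120 held 15.4, 16.7 and 11.4%. The first 10 nucleotides held 3.44, 6.77 and 9.49%, and nucleotides 51 to 60 held 1.49, 1.58 and 0.527%. Every QKI-5 library thus had a low point before the first crest. Over the 18 bins, Pearson's r between libraries was 0.784 for replicates 1 and 2, 0.832 for 1 and 3, and 0.742 for 2 and 3. Over the 179 single positions r was 0.566, 0.671 and 0.572. These are descriptions across positions, which are not independent replicates and were chosen for having many events.

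**Figure D3:**
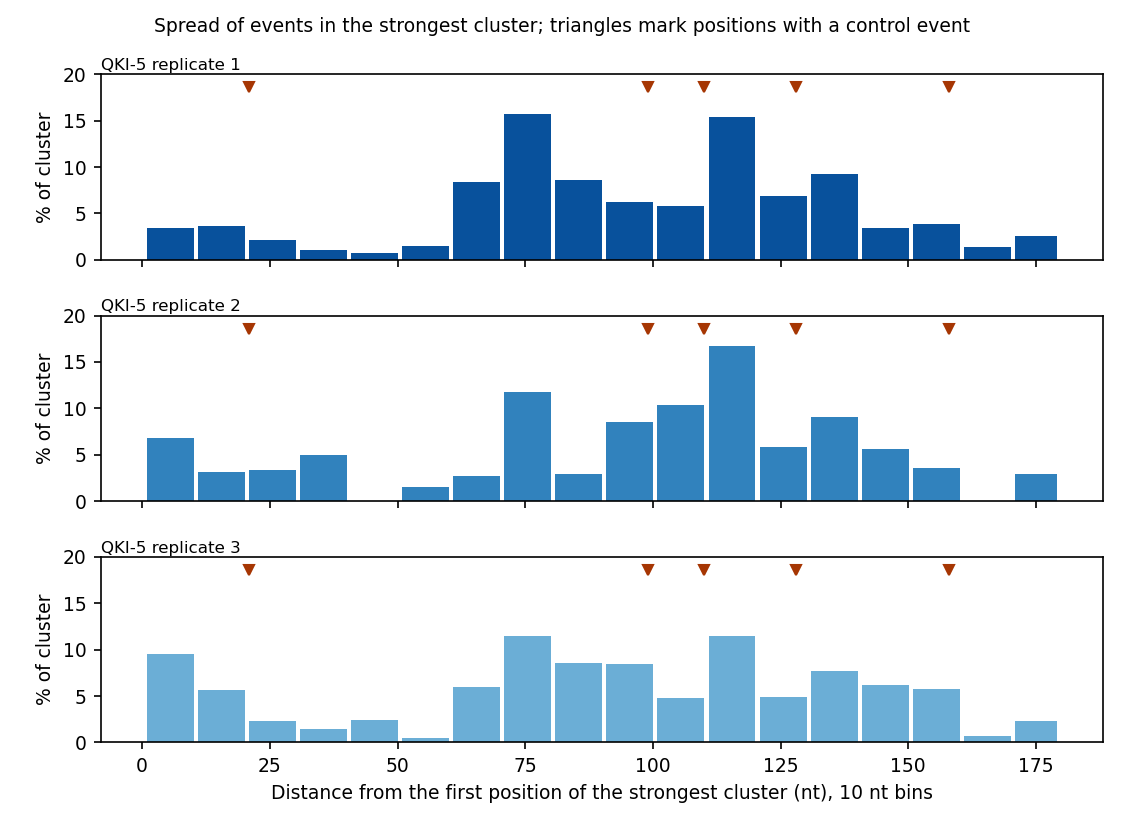
Percent of a library's cluster events (vertical axis) per 10 nt bin, by distance in nt from the first position of the strongest cluster (horizontal axis), with 1 panel per QKI-5 library. Bars at nucleotides 71 to 80 and 111 to 120 are the crests, and triangles mark the 5 positions that held any control event.

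The QKI-5 level was lower outside the borders of the cluster, which is partly built in by the 5-event threshold that sets them. The start of the cluster lay at 128471017 when positions were joined at 5 nt, and at 128471026 without QKI-5 replicate 1. The 100 nt before the cluster held 41, 9 and 16 events in QKI-5 replicates 1, 2 and 3, and the 100 nt after it held 18, 5 and 26. Per kb, the mean QKI-5 level was 1250 EPM in the cluster, 51.2 EPM before it and 46.0 EPM after it. The control mean was 451 EPM per kb in the cluster, 447 before it, from 4 events of control replicate 3, and 0 after it. In the QKI-5 libraries a wider rise surrounded it. The 1 kb after the cluster held 40.8 ± 16.7 EPM (SD, n = 3) and the 1 kb before it held 13.5 ± 3.27 EPM. The median 1 kb bin of the interval held 2.65 EPM. Controls had 26.5 ± 39.8 EPM in the 1 kb after and 44.7 ± 77.5 EPM in the 1 kb before (SD, n = 3), from 4 events each. The groups overlapped in both, so the rise was not told apart from the controls. Where the 5-event threshold falls matters for the small clusters, as 45 positions had 5 pooled QKI-5 events and 82 had 4.

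Another 39 clusters met the same definition, and most were minor. Of all 40, 30 were single positions and 12 had events in each QKI-5 library. By geometric mean over the QKI-5 libraries the strongest cluster stood at 222 EPM, 12.8-fold above the second. The second cluster, chr3:128484176-128484247, was 72 nt wide and held 188, 28 and 44 events, or 25.8, 13.1 and 15.2 EPM. Its only control event was in control replicate 1, so that the ratio of pooled levels was 4.42 (exact interval 0.786 to 175). Its richest position, 128484214, held 15, 1 and 7 events.

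The next 3 clusters lay in the 1 kb after the strongest one. The cluster at chr3:128471676-128471684 held 21, 29 and 17 events, with 1 event in control replicate 2 and a pooled ratio of 1.14 (exact interval 0.197 to 45.6). That at chr3:128471388-128471391 held 26, 6 and 21 events and no control event. At chr3:128471757-128471764 there were 50, 4 and 8 QKI-5 events and 3 control events, for a pooled ratio of 0.351 (exact interval 0.115 to 1.75). The QKI-5 levels of the cluster without a control event, 3.57, 2.80 and 7.27 EPM, were below what 1 event is worth in most controls. QKI-5 libraries differed among themselves in which of the 3 was highest.

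Clusters defined on 2 QKI-5 libraries were then measured in the QKI-5 library left out, so that the measured library did not set their borders. The gene itself was chosen from all the QKI-5 libraries, so these shares are a description. The strongest of them overlapped the cluster above each time, and held 39.6% of RAB7A events in replicate 1, 36.4% in replicate 2 and 33.4% in replicate 3. Over all such clusters (25, 27 and 20 with replicates 1, 2 and 3 left out) the held-out share was 46.3, 42.3 and 38.9%. Controls 1, 2 and 3 held 5.43, 23.3 and 53.8% in the same clusters. The means were 42.5 ± 3.68% and 27.5 ± 24.5% (SD, n = 3 each), and the difference was smaller than the control spread. The difference of 14.97 percentage points depended on what was counted. It was 6.18 points with clusters of at least 3 events per position, and -11.6 points with distinct positions in place of events, where QKI-5 libraries held 16.3% and controls 27.8%. Without control replicate 3 it was 28.1 points. The direction of the contrast with controls was therefore positive where events were counted and reversed where distinct positions were counted. By distinct positions the deepest library, QKI-5 replicate 1, had a share of 9.12%, against 46.3% by events. How far the unequal depth of the libraries sets this reversal was not tested.

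Along the gene, counts were summed in 10 kb windows on the plus strand, numbered 1 to 10 from the start. Window 4, 128470001 to 128480000, contained the strongest cluster and had the highest level, at 346, 298 and 328 EPM with the antibody and 50.8, 72.3 and 403 EPM in controls 1, 2 and 3. Control replicate 3 lay above every QKI-5 library there, with 12 events. Its log2 fold change was 2.14 (SE 0.57), and no p is given because its cluster was used to choose the gene. It was 1.29, 1.32 and 1.22 without QKI-5 replicates 1, 2 and 3, 3.22 without control replicate 3, and 1.41 with library totals in place of TMM. The medians over all windows in these fits were 0.25, 0.32, 0.27, 0.93 and 0.22, against 0.78 with all libraries and TMM. With the cluster taken out of every library the log2 fold change of window 4 was 1.13 (SE 0.58, adjusted p = 0.269 by edgeR). Its levels were then 100 ± 27.7 EPM with the antibody and 94.5 ± 65.0 EPM without it (SD, n = 3 each). The cluster was picked on the QKI-5 libraries, so its removal lowers their side by choice and no conclusion is drawn from that test.

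None of the other 9 windows passed the test between QKI-5 and control libraries (edgeR quasi-likelihood test, adjusted p from 0.166 to 0.980). Windows 5 to 9 had no event in controls 2 and 3 and passed the filter on low counts through their QKI-5 libraries. Windows 1 and 2 had no event in control replicate 3, so they too could not pass it on controls alone. No weight is given to the tests of any of these windows. Of all 29960 windows tested, 0.754% were called higher and 0.107% lower. At an unadjusted p under 0.05 there were 2 of the 9, beside 18.4% of all windows, and the DESeq2 Wald test called 0, beside 1.16% higher and 0.287% lower over all windows. Their median log2 fold change was 0.80, against 0.78 over all windows tested with TMM scaling. With library totals the same medians were 0.25 and 0.22. The medians of the 9 include the windows given no weight, and in both fits they are the value of window 9. That window had 4 control events, all in control replicate 1, so these medians are descriptions only. In 2 of the 9 every QKI-5 library lay above every control, against 23.7% of all windows.

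**Figure D4:**
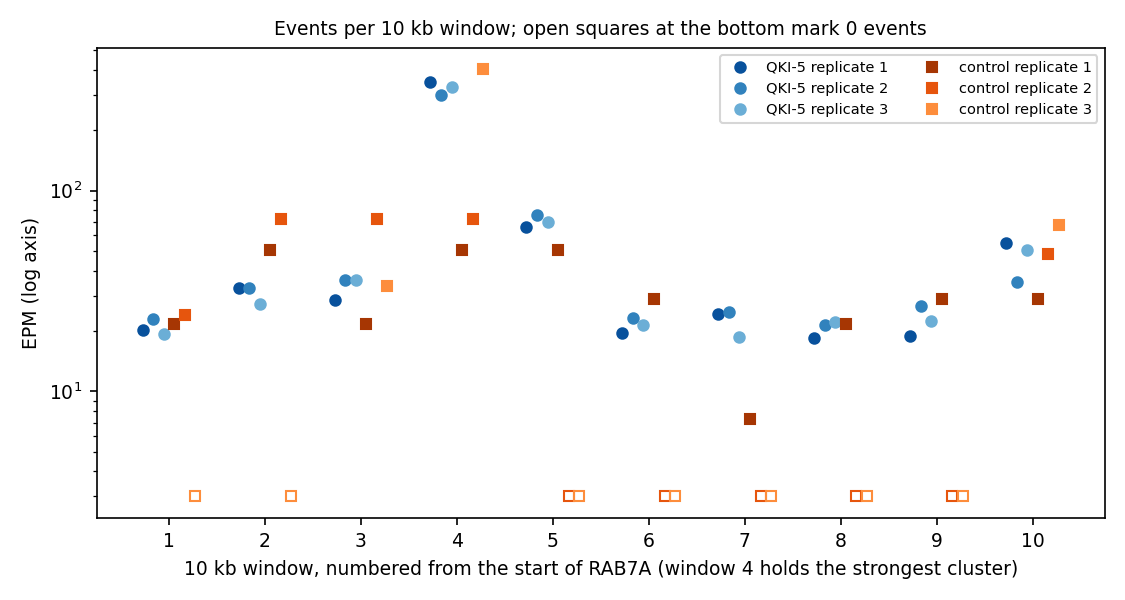
Level in EPM on a log axis for each library in the 10 windows of 10 kb along RAB7A, with QKI-5 libraries as circles, controls as filled squares and 0 events as open squares at the bottom. Only in windows 5 and 7 do all QKI-5 circles lie above all control squares, and in window 4 control replicate 3 is the highest point.

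Window 5, 128480001 to 128490000, holds the second cluster and came next in level. It had 65.8, 75.6 and 69.6 EPM with the antibody, and its 7 control events were all in control replicate 1 (50.8 EPM). Its log2 fold change was 1.67, with an SE of 0.68 and an adjusted p of 0.166 by edgeR, and without control replicate 1 no control event was left. In the fit without that library the window was called, as were 1.59% of windows in the same direction. With 5 kb windows edgeR called its first part, 128480001 to 128485000 (log2 fold change 2.74, SE 0.84), as it called 5.98% of all 5 kb windows higher. No weight is given to either call, because both windows passed the filter on low counts through their QKI-5 libraries, with no event in controls 2 and 3. The 5 kb part had 49.3, 62.1 and 48.8 EPM against 3 control events, a pooled ratio of 3.58 given as a description.

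Window 7, 128500001 to 128510000, had 24.4, 24.7 and 18.7 EPM with the antibody and a single control event, for which the ratio of pooled levels was 4.84 (exact interval 0.862 to 192). Window 8, 128510001 to 128520000, had the lowest QKI-5 level, with 18.5, 21.5 and 22.2 EPM, and 3 control events, a pooled ratio of 1.39 (0.469 to 6.77). In windows 5 to 9 every control event came from control replicate 1. Window 2, 128450001 to 128460000, changed sign between fits, at a log2 fold change of -0.05 with TMM scaling and 1.08 without control replicate 1. It lay below the median of all windows tested in both fits, which was 0.78 and 6.69. Window 10 reaches past the end of RAB7A, and only 174 of its 622 QKI-5 events lay inside the interval.

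Away from windows 4 and 5 the QKI-5 level was even between libraries. Before them it was 3.26, 3.65 and 3.30 EPM per kb in QKI-5 replicates 1, 2 and 3 over 25.04 kb. Controls 1, 2 and 3 had 3.76, 6.74 and 1.34 EPM per kb there, from 13, 7 and 1 events. After them the QKI-5 level was 2.23, 2.37 and 2.28 EPM per kb over 43.6 kb. Control replicate 1 had 2.66 EPM per kb there, from 16 events, and the other controls had none. In both stretches at least 1 control lay above every QKI-5 library, so the groups overlapped. In the interval without the cluster, counted in 500 nt bins, Pearson's r between QKI-5 libraries was 0.771, 0.784 and 0.775 (177 bins, a description). These bins include windows 4 and 5, with high bins such as that at 39.25 kb (30.1, 20.5 and 20.1 EPM), so r does not describe the low signal alone. The level of the low signal away from windows 4 and 5 was not told apart from the controls.

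For the gene as a whole, the genome was divided into strand-specific windows as long as RAB7A, of which 1 is RAB7A itself. With all its events, RAB7A had a log2 fold change, QKI-5 over control, of 0.94 (SE 0.34) with edgeR and 0.92 with DESeq2. These values include the cluster the gene was chosen for, so they are descriptions and no p is given. Of the 13166 windows tested, edgeR called 0.494% higher and 0.41% lower, DESeq2 called 0.737% higher and 0.463% lower, and the median log2 fold change was 0.22 with edgeR. With the strongest cluster taken out, the log2 fold change of RAB7A was 0.47 (SE 0.33) and did not pass the edgeR quasi-likelihood test (adjusted p = 0.581). The DESeq2 Wald test on the same counts gave 0.47 (SE 0.29, adjusted p = 0.376). The cluster taken out was picked as the highest in the QKI-5 libraries, so its removal lowers the QKI-5 side by choice. It also takes out 7 of the 13 events of control replicate 3. Neither test can therefore show that the rest of RAB7A lacks a difference. The remaining level was 323, 362 and 384 EPM with the antibody against 305, 241 and 201 EPM in controls. These groups did not overlap but came close, and 19.6% of the 13166 windows tested had every QKI-5 library above every control. The pooled ratio of 1.24 had an exact interval of 0.958 to 1.64.

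RAB7A ranked high among windows of its length, which describes the choice of the gene. Of 44829 such windows with any event, 44 had a higher mean EPM in the QKI-5 libraries. Among 2594959 tiles as wide as the cluster with any event, 48 were above it by the geometric mean of the QKI-5 levels. The tiles were laid from the first nucleotide of this cluster, which favours it. In control replicate 3, where the cluster had 7 events, 57 tiles were above it, against 12065 in control replicate 1. The cluster thus ranked near the top in that control too.

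Concentration in 1 short stretch set RAB7A apart from most windows with at least 1000 pooled QKI-5 events, again as a description. That number is a floor and not a match in totals, as RAB7A had 7199 such events. Among 3504 windows of the same length with at least 1000 pooled QKI-5 events, the richest 200 nt held a median of 6.44% of the events. In RAB7A they held 41.3%, and 40 windows had a higher share. The 3 windows nearest to RAB7A in level, by Euclidean distance in log2(EPM + 1) over the 6 libraries, were on the plus strand of chromosome 9 from 128533640 (distance 0.497), of chromosome 20 from 30902465 (0.562) and of chromosome 5 from 65219690 (0.582). Their richest 200 nt held 5.19, 7.04 and 10.04% of QKI-5 events. These 3 windows were near RAB7A in level and far flatter in profile.

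**Figure D5:**
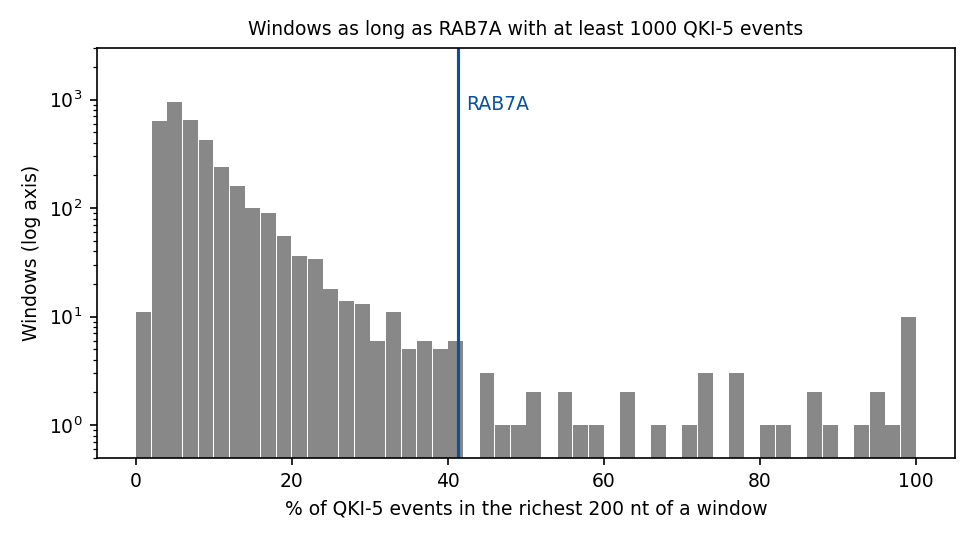
Number of windows as long as RAB7A (vertical log axis) by the percent of their QKI-5 events in the richest 200 nt (horizontal axis), for windows with at least 1000 such events. The line marks RAB7A at 41.3%, to the right of the bulk around the median of 6.44%.

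Reads from near-identical copies could touch these counts. RefSeq lists 4 pseudogenes inside RAB7A on GRCh38.p14, namely MARK2P8, FTH1P4, RN7SL698P and RPS15AP16. They were not placed on hg19, and the sources used here do not say how reads with several alignments were counted. Whether any cluster overlaps one of them was not tested. The protein-coding neighbours in the same table are RPN1 before and ACAD9 after RAB7A.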

How the data were processed

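The deposited files hold whole-number counts of crosslink events per position and strand, 1 file per library, not normalized. The submitters' processing notes name Bowtie, cutadapt and hg19, without tool versions. Positions were selected by the interval and strand given above. Events were summed in strand-specific windows (as long as RAB7A, 10 kb and 5 kb) over the whole genome and tested with edgeR 4.0.16 (R 4.3.3, limma 3.58.1): quasi-likelihood F test, TMM factors, filterByExpr, group as the only term, Benjamini-Hochberg adjustment over all windows, and calls at an adjusted p under 0.05. SE is the log2 fold change divided by the square root of F. DESeq2 1.42.0 was an alternative. The rest was done with scipy 1.17.1, pandas 2.3.3, numpy 2.4.6 and matplotlib 3.10.9 under Python 3.11.15. Scripts were tested on simulated data. EPM carry no TMM factors, so fold changes differ from EPM ratios.

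The gene and the definitions were chosen with earlier results of these data known. By rule, the text names the 5 clusters with the highest geometric mean EPM, the windows of highest and lowest QKI-5 level, the 3 richest positions and the 3 windows most like RAB7A. Windows 2, 5, 7 and 10 and the stretches around the gene were named after their values were seen. The planned lists of late endosome genes and cell type markers, and any sequence, need hg19 coordinates or sequence not used here and were not analysed here.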

Additional observations from a re-analysis of the deposited data

How the results depend on the processing

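With the strongest cluster taken out, RAB7A had a log2 fold change of 0.47 with edgeR (adjusted p = 0.581) and 0.47 with DESeq2 (adjusted p = 0.376). That cluster was picked on the QKI-5 libraries, so its removal lowers their side by choice. The other alternatives for RAB7A keep the cluster it was chosen for, so their values are descriptions and show no stability. They ran from 0.31 (distinct positions in place of events) to 1.19, from 0.69 to 1.19 with 1 library left out, and gave 0.92 with DESeq2. For the 9 windows, the number called was 0 in every setting that tested them except 5 kb windows (1 of 13) and the fit without control replicate 1 (1 of 9), so 0 to 1 with 1 library left out. That window was window 5, whose control events all came from the library left out, so no weight is given to that call. In that fit 1.59% of windows were called higher. Without QKI-5 replicate 1, 2 or 3 none of the 9 passed the filter on low counts, and they have no value there. Window 2 turned positive without the filter (0.45), without control replicate 1 (1.08) or 2 (0.30; -0.16 without the third) and with the replicate block (0.21), and window 3 fell to -0.048 with library totals. The medians over all windows were 1.66 without the filter, 6.69 and 0.92 without control replicates 1 and 2, and 0.91 with the replicate block. Window 2 lay below the median in each of these fits.

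The number of clusters was 198 with at least 3 events per position, 8 with at least 10, and 20 to 27 with a QKI-5 library left out. The mean share of the strongest cluster, 38.5 ± 5.98%, was 29.2% when positions were joined at 5 nt and 27.7 to 40.7% with a library left out, the lowest without QKI-5 replicate 1, when the cluster became 117 nt wide. The held-out difference reversed to -11.6 percentage points with distinct positions and was 28.1 without control replicate 3, an alternative chosen after seeing the data, as were the fits without the strongest cluster. Causes were not tested.

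With the replicate block RAB7A had a log2 fold change of 0.98, and 0 of its 9 windows were called. As that fit called 0 of all 29960 windows, with a smallest adjusted p of 0.200 by edgeR and 2195 windows at an unadjusted p under 0.05, it says nothing about their stability. Whether the numbers pair the libraries was not settled. Over windows as long as RAB7A, same-numbered libraries deviated from their group means with correlations of 0.033, 0.165 and 0.0996. QKI-5 replicates 2 and 3 correlated best with the control of their own number, and replicate 1 with control replicate 3 (0.0822). Control depth, 66 RAB7A events in all, limits every contrast.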
